A study of Mus musculus with 36 samples.

Results

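Diaphragm muscle of 7-day-old mdx mice, a model in which the dystrophin gene Dmd is mutated, was compared with that of control mice of the same age. The comparison takes every array whose title names that age, which is 3 mdx and 3 control arrays, or 6 of the 36 arrays of the series. The other 30 arrays cover 14, 23, 28, 56 and 112 days, again with 3 mdx and 3 control arrays an age. Total RNA of the muscle was hybridised to 1-colour Affymetrix arrays, and the labels give no strain, sex, treatment, pooling or hybridisation date. The labels number the replicates without saying whether each was a different animal. The p-values therefore rest on the spread among replicate arrays, taken within groups over all 36 arrays, and that spread may be technical.

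Dystrophin links the contractile core of the muscle fibre to the membrane and, through the dystrophin glycoprotein complex, to the matrix outside. In mdx mice full-length dystrophin is missing from before birth, but fibre necrosis with its infiltrate of macrophages and the regeneration that follows becomes widespread only after weaning age approaches. The early postnatal diaphragm is itself still maturing, as fetal isoforms of contractile and synaptic proteins give way to adult ones. The 7-day comparison therefore addresses what differs in dystrophic muscle before overt breakdown.

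The tissue label fits the markers of skeletal muscle. Of the 7 markers measured, Tnnt3 read 30591.4 to 58036.4 over the 6 arrays and Mb 13856.6 to 20993.1. Each marker's percentile among all probe sets of an array, averaged over the 6 arrays, was at least 84.9. Acta1 was the most uneven of them, at 854.6 to 26369.2. Of the 12422 probe sets that are not the maker's controls, 9291 passed a filter on low values and were tested. Signals were compared as log2(signal + 32), so log2 differences understate changes of dim genes.

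The array labelled mdx replicate 1 stood apart from the other 7-day arrays before any comparison was made. Its mean Pearson r with the other 5 arrays of 7 days was 0.885, whereas its mean r with the 6 arrays of 14 days was 0.935, over a range of 0.926 to 0.946. Its nearest array in the whole series was control replicate 2 of 14 days. Each of the other 5 arrays was nearest to an array of 7 days, with r of 0.956 to 0.960, and had a mean r of 0.864 to 0.890 with the 14-day arrays. These correlations run across probe sets, which are not independent.

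**Figure D1:**
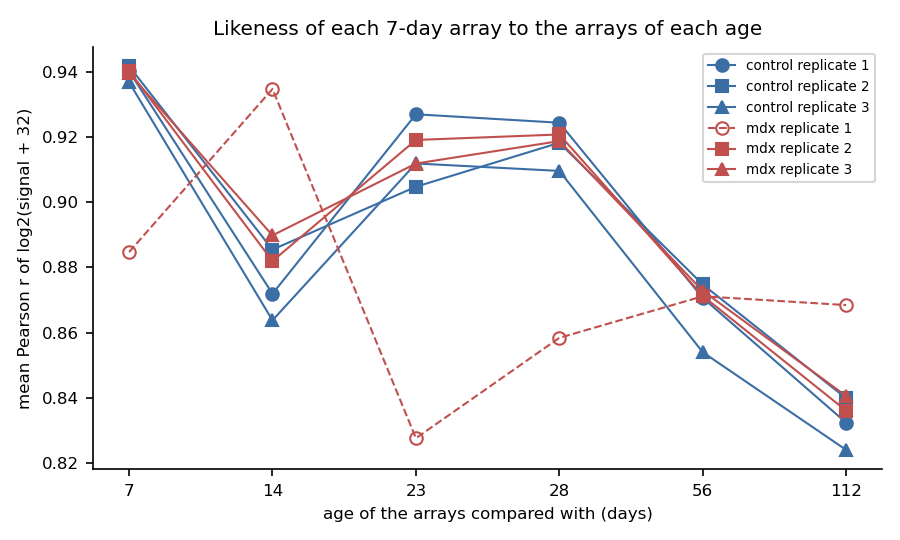
Mean Pearson r of log2(signal + 32) over the 9291 tested probe sets between each 7-day array and all other arrays of each age (x axis, days, not to scale). The dashed line of mdx replicate 1 falls to 0.885 at 7 days and peaks at 0.935 at 14 days, while the solid lines of the other 5 arrays peak at 7 days.

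The same array took the 14-day side at most genes that part these ages. In 317 probe sets every control array of 14 days lay more than 1 log2 unit above (171) or below (146) every control array of 7 days. At 256 of them (80.76%) mdx replicate 1 lay nearer to the 14-day controls, compared with 45 (14.2%) for mdx replicate 2, 55 (17.35%) for mdx replicate 3 and 274 to 284 for the mdx arrays of 14 days. Wnt4, which encodes a secreted signalling protein, read 144.7 on this array, 930.1 to 1138.4 on the other 7-day arrays and 119 to 213 at 14 days. Abcf2 read 200.4, against 1217.1 to 1641.3 and 181.7 to 334.6. Of the imprinted genes looked at, Igf2 and Dlk1 stayed with the 7-day arrays and Meg3 did not. Igf2, a fetal growth factor, read 3241.6 on this array, 528.2 to 3144.4 on the other 7-day arrays and 30800.5 to 49375.8 at 14 days. Dlk1 read 36143.4, 19938.2 to 33927.2 and 6972.3 to 10307.6 in the same order. Meg3, an imprinted noncoding RNA, read 27192.8, 907.3 to 11632.6 and 13684.3 to 27299.8 on 1 probe set, on the 14-day side. On another it read 16866.3, 23945.8 to 24818.8 and 5654.1 to 7877.6, between the ages.

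The fetal myosins lay between the ages. Myh3, the embryonic heavy chain, read 1377.6 on mdx replicate 1, 2393.2 to 4476.8 on the other arrays of 7 days and 383.5 to 613.8 at 14 days. Myh8, the perinatal heavy chain, read 8833.5, 22090.7 to 27920.3 and 1638.5 to 3789.1. The labels give no hybridisation batch, so the part of a batch, of age or of the sample itself in this array was not tested, and the values without it stand beside the main calls and list medians below.

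A single-array excess or deficit was also far more frequent on this array. It lay more than 1 log2 unit above all 5 other arrays at 317 probe sets and below all of them at 177, whereas the other arrays did so at 6 to 11 and 22 to 57. Farthest above were Cdc23 (930.9, others at most 87.8), H2-Pa, Ptcra, Tubb2a-ps2, Fam83g, Kif9, Ska3, 0610005C13Rik, Lect2 and Aanat. Farthest below were Nfyc (172.1, others at least 1403.2 on that probe set), H2-K2, Wnt4, Nme4 and Abcf2.

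Albumin, the main secreted protein of liver, divided the arrays without regard to genotype. Alb read 964.3, 1831.9 and 25494.3 on the control arrays and 35486.9, 2398.9 and 3189.2 on the mdx arrays. The summed signal of the liver markers ran from 5889.9 to 83287.1 in controls and from 9957.3 to 114820 in mdx. Of 18 tested markers 0 were called, against 0.463% of all probe sets. Gapdh control probe sets of the 3' and 5' ends, whose ratio is a sign of RNA quality and labelling, gave a 3'/5' ratio of 0.147, 0.0555 and 0.0357 on the control arrays. On the mdx arrays it was 0.830, 0.320 and 0.704, so the groups did not overlap. The same ratio of beta-actin did overlap, at 0.507, 0.437 and 0.660 on the control arrays and 0.907, 0.415 and 0.648 on the mdx arrays. For both genes the 5' signal was the brighter on every array. With the Gapdh ratio as a covariate 10 probe sets were called in place of 43, and 8 of them were among the 43. Of the 35 calls with 1 gene symbol, 28 were lost in that fit. The paragraphs on called genes below do not repeat it gene by gene.

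Few genes differed at 7 days. A probe set was called where its adjusted p (limma over all 36 arrays, Benjamini-Hochberg over the 9291 probe sets) was under 0.05. By that rule 43 probe sets (0.463%) were called, of which 5 (0.0538%) were higher and 38 (0.409%) lower in mdx. At that share most gene lists of the sizes used below would hold 0 calls, so 0 calls does not set a list apart. At an unadjusted p under 0.05 there were 990 (10.7%), with 553 higher (5.95%) and 437 lower (4.70%). That number was 462 without mdx replicate 1, 1493 without mdx replicate 2 and 1306 without mdx replicate 3. Leaving out control replicates 1, 2 and 3 in turn gave 701, 1078 and 643. The median log2 difference over all tested probe sets was 0.04. In all 38 falls every mdx array lay below every control array, as it did in 7.16% of all tested probe sets. In 4 of the 5 rises every mdx array lay above every control array, against 8.22% of all.

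The array that stood apart carried a share of these calls. It was the lowest of the 6 arrays in 18 of the 38 falls and the highest in 4 of the 5 rises. Without it 23 probe sets were called, 2 higher and 21 lower, and all 23 were among the 43. Leaving out control replicate 1 gave 1 rise and 16 falls, leaving out control replicate 2 gave 4 and 25, and leaving out control replicate 3 gave 7 and 26. Without mdx replicate 2 there were 14 rises and 45 falls, and without mdx replicate 3 there were 17 and 39. Of the 43 calls, 11 held in all 6 of these fits. A fit on the 6 arrays of 7 days alone called 0 probe sets, with 723 at an unadjusted p under 0.05. All 43 kept their direction under every setting in which they were tested.

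**Figure D2:**
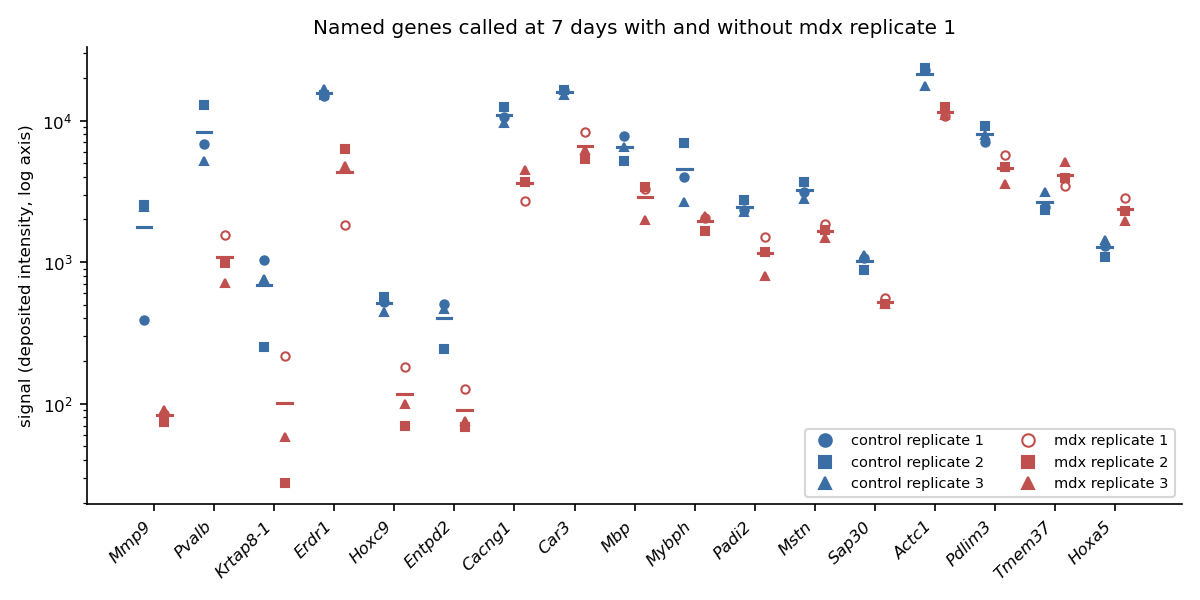
Signal on each 7-day array (y axis, deposited intensity, log scale) of the 17 named genes called both with all arrays and without mdx replicate 1. Points are arrays, horizontal bars are group means, control is blue and mdx red, and the open circle is mdx replicate 1. For the 15 genes from Mmp9 to Pdlim3 all mdx points lie below all control points, and for Tmem37 and Hoxa5 all lie above.

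Dystrophin's own transcript did not pass the test at this age. Dmd read 648.2, 752 and 756.6 on the control arrays and 407.3, 712.3 and 439.8 on the mdx arrays. Mdx replicates 1 and 3 were below all controls and mdx replicate 2 was not. The log2 difference was -0.48 (SE 0.30, adjusted p = 0.577), and -0.34 without mdx replicate 1. At later ages Dmd was called lower at 23, 56 and 112 days, with differences of -1.28, -1.56 and -0.90. Utrn, which encodes the dystrophin relative utrophin, had a log2 difference of -0.31 at 7 days (adjusted p = 0.712). Among the 13 tested genes of the dystrophin complex 0 were called, against 0.463% of all probe sets. Of the 13, 10 lay below 0 and the median was -0.10, with Sgcb, a sarcoglycan of the membrane complex, at -0.45. Aqp4, the water channel that the complex anchors at the fibre membrane, is described with the calls that were lost.

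Cacng1 fell with no overlap of the groups and was called in all 6 fits that left out an array. It encodes the gamma subunit of the voltage sensor channel that couples excitation to contraction. It read 10671.5, 12528 and 9570 on the control arrays and 2710.4, 3685.8 and 4462.9 on the mdx arrays. The highest mdx array lay under the lowest control array by more than the span of either group. On the log2 scale the difference was -1.61 (SE 0.19, adjusted p = 7.58e-06). It was -1.41 when mdx replicate 1 was left out (adjusted p = 0.000317). Of 10 tested genes of excitation contraction coupling Cacng1 was the 1 called, against 0.463% of all probe sets. The median of the 10 was -0.09. Cacna1s, the pore subunit of the same channel, read 10086.9, 11120.9 and 9021.4 in controls against 6267.4, 9091.3 and 8648.6 in mdx, which overlapped, and Ryr1, the release channel, had a log2 difference of -0.09.

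Pvalb, the calcium buffer of fast fibres, fell on 1 of its probe sets. On that probe set it read 6861.3, 12866.9 and 5146.1 in control arrays and 1561.8, 992.3 and 715.2 in mdx, with no overlap. Mdx minus control was log2 -2.85 (SE 0.25, adjusted p = 2.28e-08) and -3.14 without mdx replicate 1. A brighter Pvalb probe set read 21200.3, 2437.8 and 18068.2 in control arrays and 14787.5, 9797.5 and 11827.8 in mdx and was not called (0.29, adjusted p = 0.893). The probe sets therefore disagreed. The called one carries the maker's suffix for probes shared within a gene family, as do those called for Erdr1, Hoxc9 and Entpd2.

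Car3, a cytosolic carbonic anhydrase abundant in slow fibres and fat, read 16339.2, 16473.9 and 15164.1 in control arrays and 8322.7, 5367 and 6235.2 in mdx. All mdx arrays were lower. On the log2 scale the difference was -1.29 (SE 0.24, adjusted p = 0.00681), and -1.46 without mdx replicate 1. In bulk tissue fewer cells of a type and less RNA per cell cannot be told apart, here and for every gene below.

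Mybph, Actc1 on 1 of its probe sets, and Mstn were each called lower, and their upstream sequences are shown as those of muscle genes with a call at this age. Mybph encodes a thick filament protein related to myosin binding protein C, Actc1 the cardiac actin that fetal and regenerating skeletal muscle also make, and Mstn myostatin, the secreted brake on muscle growth. The 250 bases before the start site of each were read from RefSeq's GRCm38.p6, 5' to 3' on the gene's strand. Capitals mark matches to an E-box, the core CANNTG bound by myogenic factors, or to a CArG box, the site of serum response factor.

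Mybph, chr1:134193198-134193447, plus strand: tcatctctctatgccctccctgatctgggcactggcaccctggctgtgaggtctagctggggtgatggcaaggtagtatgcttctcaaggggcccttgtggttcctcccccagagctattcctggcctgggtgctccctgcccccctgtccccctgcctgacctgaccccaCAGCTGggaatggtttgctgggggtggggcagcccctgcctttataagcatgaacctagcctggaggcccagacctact

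Actc1, chr2:114052876-114053125, minus strand: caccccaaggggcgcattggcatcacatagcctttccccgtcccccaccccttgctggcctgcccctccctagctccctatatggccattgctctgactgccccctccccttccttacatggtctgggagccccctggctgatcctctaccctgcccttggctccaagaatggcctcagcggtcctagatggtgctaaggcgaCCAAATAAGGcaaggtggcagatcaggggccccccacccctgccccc

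Mstn, chr1:53061390-53061639, plus strand: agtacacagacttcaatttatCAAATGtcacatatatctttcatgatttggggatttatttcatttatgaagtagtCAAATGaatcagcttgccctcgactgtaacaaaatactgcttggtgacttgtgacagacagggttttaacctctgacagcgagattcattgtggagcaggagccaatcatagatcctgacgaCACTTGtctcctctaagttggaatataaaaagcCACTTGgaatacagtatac

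Mybph holds 1 E-box, CAGCTG, which starts 79 bases before the start site. Actc1 holds 1 CArG box, CCAAATAAGG, 47 bases before it, and 0 E-boxes. Mstn holds 4 E-boxes of the form CANNTG, at 229, 174, 52 and 19 bases before the start site. Both strands were searched in 32851 windows of the same length, of which 66.2% held CANNTG, 13.0% held CAGCTG, which is a form of CANNTG, and 1.47% held a CArG box. A match describes these letters and is not evidence of binding.

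Mybph read 4011.7, 6923.7 and 2667.9 on the control arrays and 2038.7, 1666.4 and 2122.3 on the mdx arrays. The highest mdx array lay just under the lowest control array. The log2 difference was -1.11 (SE 0.23, adjusted p = 0.0137). It was -1.15 when mdx replicate 1 was left out (adjusted p = 0.0443). Actc1 read 22878, 23606.2 and 17595.5 in controls against 10849.4, 12424.2 and 11015.7 in mdx on the called probe set, with no overlap. Its log2 difference was -0.89 (SE 0.16, adjusted p = 0.00506) and -0.85 without mdx replicate 1. A second, brighter Actc1 probe set read 24730.4 to 28891 in controls and 23313.5 to 30186.5 in mdx and was not called, at -0.06. Mybph was called in 3 and Actc1 in 5 of the 6 fits that left out an array.

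Mstn read 3141.9, 3690.3 and 2806.6 in control arrays and 1853.4, 1678.6 and 1474.5 in mdx, so that each mdx array was below each control array. Mdx minus control was log2 -0.93 (SE 0.19, adjusted p = 0.0161). It was -1.01 when mdx replicate 1 was left out (adjusted p = 0.0330). Of 21 tested genes of muscle growth and proteolysis Mstn and Gadd45a were called lower (0.409% of all probe sets) and 0 higher (0.0538%). The median of the 21 was -0.19. Pdlim3, an actinin binding protein of the Z-disc, read 7073.5, 9126 and 7859.6 against 5688.9, 4682.2 and 3537.2. Its log2 difference was -0.81 (SE 0.19, adjusted p = 0.0396) and -0.97 without mdx replicate 1. Mstn was called in 3 and Pdlim3 in 1 of the 6 fits that left out an array, and Pdlim3 was not called without both high-albumin arrays (adjusted p = 0.0685).

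The largest named fall was that of Mmp9, a gelatinase made by neutrophils and by osteoclasts, the cells that resorb bone. It read 389.9, 2516 and 2436.5 on the control arrays and 84.4, 74.5 and 90.3 on the mdx arrays. Control replicate 1 was far below the other controls, yet above every mdx array. On the log2 scale the difference was -3.59 (SE 0.50, adjusted p = 0.000188), -3.60 without mdx replicate 1 (adjusted p = 0.00185), and -3.18 when control replicate 3 was left out as well. A dim second probe set, not tested, read 48.1, 158.9 and 150.4 in controls against 34.6, 5.7 and 25.5 in mdx.

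Among 10 tested neutrophil markers Mmp9 was the 1 called (against 0.463% of all probe sets) and 6 lay below 0. Their median was -0.26 with all arrays and -0.60 without mdx replicate 1, when 3 of 10 lay above 0, but -0.12 without control replicate 3 as well. S100a8, a calgranulin of neutrophils, read 238.6, 1057.8 and 6316.1 in control arrays and 930.7, 667.5 and 629.1 in mdx, so a high level was seen on control replicate 3 alone. Camp, a granule peptide, read 423.8, 1465.5 and 5179.2 against 816.1, 462.5 and 672. The summed signal of the neutrophil markers ran from 5023.6 to 24682.5 in controls and from 5512.4 to 9674 in mdx.

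Some genes of bone resorption were patterned over the controls as Mmp9 was, and this group was put together after its values had been seen. Mmp13, a collagenase that was too dim to be tested, read 234.6, 1430 and 1697.5 in control arrays and 131.8, 72.7 and 121 in mdx. Acp5, the tartrate resistant phosphatase of osteoclasts, read 580.1, 1864.1 and 2102.4 against 561.4, 364.6 and 359. Its log2 difference was -1.58 (adjusted p = 0.0396), and its call was lost without mdx replicate 1 (adjusted p = 0.0554). Ctsk, the collagen degrading cathepsin of osteoclasts, read 2263.3, 4833.7 and 4658.3 against 1429.9, 2273.5 and 2131.7 and was not called (-0.95, adjusted p = 0.0668). In all 3 genes control replicate 1 was the lowest control array by far. Of the 14 genes in the group 11 were on the array and 8 tested, with a median of 0.01, and the other 5 tested had differences of at most 0.32. The group's summed signal was 11743, 20850.9 and 19849.8 in control arrays and 11358, 11577.7 and 13390.8 in mdx. Whether adjoining rib or cartilage differed between the samples was not tested. Cartilage and bone markers fixed apart from this group had 0 of 9 called, against 0.463% of all probe sets. These markers summed to 4014.3 to 6975.9 in controls and 4890.4 to 9236.6 in mdx.

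Mbp, which encodes myelin basic protein of the nerve sheath, read 7827.1, 5181.2 and 6509.4 in control arrays and 3310.6, 3385.5 and 1975 in mdx, with no overlap. The log2 difference was -1.18 (SE 0.26, adjusted p = 0.0245), and -1.30 without mdx replicate 1. Mbp was called in 3 of the 6 fits that left out an array and not without both high-albumin arrays (adjusted p = 0.124). A dim second probe set of Mbp was not called, at 0.60. Pmp22, another protein of peripheral myelin that other cells also make, read 16631.6 to 18635.7 against 8474.6 to 12897, and its call was lost without mdx replicate 1 (-0.55, adjusted p = 0.192). The other 5 of 7 tested Schwann cell markers lay above 0 and were not called, with Sox10, the lineage's transcription factor, at 0.38. Over all probe sets 0.463% were called. The summed signal of the markers ran from 30799.7 to 35097.3 in controls and from 22601.8 to 28172.6 in mdx. Much of that sum is Pmp22 and Mbp themselves, so it is not independent of these 2 genes. The part of nerve content in these values was not tested.

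Positional genes of the Hox clusters moved in both directions. Hoxc9 read 523.2, 565.9 and 447.4 in control arrays and 182.2, 69.8 and 99.3 in mdx, and Hoxa5 read 1289.7, 1093.6 and 1425 against 2835.7, 2312.7 and 1944.6. Neither gene's groups overlapped. The log2 differences were -1.93 (SE 0.36, adjusted p = 0.00508) and 0.87 (SE 0.15, adjusted p = 0.00257), and -2.23 and 0.73 without mdx replicate 1. These were the 2 called of 19 tested Hox genes, against 0.463% of all probe sets. The median of the 19 was 0.51 with all arrays, 0.21 without mdx replicate 1 and 0.08 when control replicate 3 was left out too.

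Erdr1, a gene of the pseudoautosomal region, read 14852.7, 15118.6 and 16669 in control arrays and 1826.5, 6292.5 and 4790.9 in mdx. Mdx minus control was log2 -2.02 (SE 0.32, adjusted p = 0.000839) and -1.49 without mdx replicate 1. Its level was also called lower in mdx at 14, 23, 28 and 56 days, at -1.75, -2.74, -2.05 and -1.35. A dim Erdr1 probe set was not called, at -0.20.

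Tmem37, which encodes a membrane protein related to calcium channel gamma subunits, was the other rise called without mdx replicate 1. It read 2455, 2349 and 3148.2 in control arrays and 3441.7, 3915.7 and 5078 in mdx, where every array was higher. On the log2 scale the difference was 0.63 (SE 0.15, adjusted p = 0.0439) and 0.76 without mdx replicate 1. Tmem37 was called in 2 of the 6 fits that left out an array. At 23, 28, 56 and 112 days it was again called higher, at 0.53, 0.71, 0.83 and 0.81.

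The remaining named falls called without mdx replicate 1 were Krtap8-1, Entpd2, Padi2 and Sap30. Krtap8-1, a hair keratin-associated protein, read 1036.9, 250.8 and 762.6 against 216.7, 27.3 and 57.9 (log2 difference -2.50, adjusted p = 0.0396). Another skin gene, Sprr2e, rose (0.69), and the summed signal of the skin and hair markers ran from 19537.8 to 26055.3 in controls and from 23473.4 to 42671.8 in mdx. The part of adhering skin was not tested. Entpd2, an ectonucleotidase, read 502.9, 244.6 and 468.1 against 126.9, 68.2 and 74.8 (-1.81, adjusted p = 0.0322), while a brighter Entpd2 probe set was not called (-0.33). Padi2, a peptidylarginine deiminase, read 2352.6, 2725.6 and 2266.8 against 1504.9, 1187.9 and 794.6 (-1.10, adjusted p = 0.0162). Sap30, a subunit of a histone deacetylase complex, read 1073.4, 873.8 and 1129.5 against 559.8, 501.6 and 509.6 (-0.92, adjusted p = 0.00774). Without mdx replicate 1 the differences of Krtap8-1, Entpd2, Padi2 and Sap30 were -3.09, -2.02, -1.30 and -0.97. Of the 6 fits that left out an array, 2, 2, 3 and 4 called them, in that order. Without both high-albumin arrays Krtap8-1, Entpd2 and Sap30 were not called (adjusted p = 0.0753, 0.198 and 0.123).

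Of the 20 calls lost without mdx replicate 1, 2 lay on probe sets with no single gene symbol and the rest on 17 genes. Aqp4 was called on both of its probe sets, at -1.42 and -1.72, and read 8727.5, 9373.4 and 5957.5 against 2072.7, 3432.1 and 3525.2 on the brighter. All mdx arrays were below all controls there, and the difference was -1.17 without mdx replicate 1 (adjusted p = 0.382). Chrne, the adult epsilon subunit of the acetylcholine receptor, read 619.3, 1138.1 and 1088.6 against 130.9, 283.3 and 526.8 on 1 of 3 probe sets. That difference of -1.63 became -1.18 (adjusted p = 0.529), and the other probe sets gave -0.14 and 0.63. Gadd45a, a stress-induced gene, moved from -0.92 to -0.77 and just missed the threshold (adjusted p = 0.0618). Pdlim7, Ddc, Gpd2, Cd9 and Reep1 were likewise lost, with adjusted p of 0.118, 0.246, 0.118, 0.333 and 0.382. Gadd45a and Pdlim7 were nevertheless each called in 5 of the 6 fits that left out an array. Other tested probe sets of Pdlim7 gave 0.008 and 0.43 and another of Reep1 gave 1.30, and none of these was called. Meg3 was the largest rise with all arrays. Its called probe set read 907.3, 1751.5 and 1398.9 against 27192.8, 1194.1 and 11632.6, so mdx replicate 2 lay within the controls, and the difference of 2.45 became 1.499 (adjusted p = 0.556). Another Meg3 probe set read 23945.8 to 24661.5 in controls and 16866.3 to 24818.8 in mdx. Snrpb2 and Sprr2e were the other rises lost.

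In most of the genes that fell, the controls of 7 days were themselves above the controls of every later age. The mean of the 7-day controls exceeded all 5 later control means in 32 of the 38 falls, against 22.3% of all tested probe sets. Every 7-day control array lay above every later control array in 22 of the 38 (57.9%, against 7.18% of all). A fall at 7 days is by construction likelier where the 7-day controls are high, so these shares describe the calls and are no test. Cacng1 averaged 10923 in the 7-day controls and 1631 to 2519 in those of later ages, whereas the mdx groups averaged 3620 at 7 days and 2510 to 4731 later. Mmp9 averaged 1781 in the 7-day controls and 60.3 to 90.2 in later ones, beside 83.1 in mdx at 7 days. Mybph averaged 4534 and then 783 to 1947 in controls, and 1942 and then 2193 to 4364 in mdx.

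Several falls were followed by the opposite difference. In 29 of the 38 the 7-day difference was below the mean of the 5 later differences by the test of that contrast. The contrast called 3.55% of all probe sets lower and 1.49% higher. The 38 were chosen for a low 7-day difference, which enters the contrast, so the 29 describe the calls and are no test. In 22 of the 38 the later mean was above 0, a share not counted over all probe sets. Mybph was called higher in mdx from 23 days on, at 0.91, 2.05, 2.25 and 2.42, and the 7-day difference was 2.67 log2 units below its later mean. Cacng1 was called higher at 28, 56 and 112 days (0.99, 0.96 and 0.99), Sap30 at 23, 56 and 112 days (0.63, 1.17 and 1.43), Actc1 at 56 and 112 days (1.26 and 1.06) and Pdlim3 at the same ages (0.82 and 0.78). Mstn went the other way from these and was called lower again at 28, 56 and 112 days (-0.91, -1.03 and -2.03), as were Car3 (-0.90, -1.58 and -1.53) and Pvalb from 23 days on. For Actc1 and Pvalb these are the probe sets called at 7 days. The brighter Actc1 probe set was not called at 56 or 112 days (0.33 and 0.65). The brighter Pvalb probe set was called lower at 56 days (-1.74) but not at 23, 28 or 112 days (0.25, 0.30 and -0.15). None of Cacng1, Actc1, Pdlim3, Mstn, Car3 and Pvalb was called at 14 days.

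**Figure D3:**
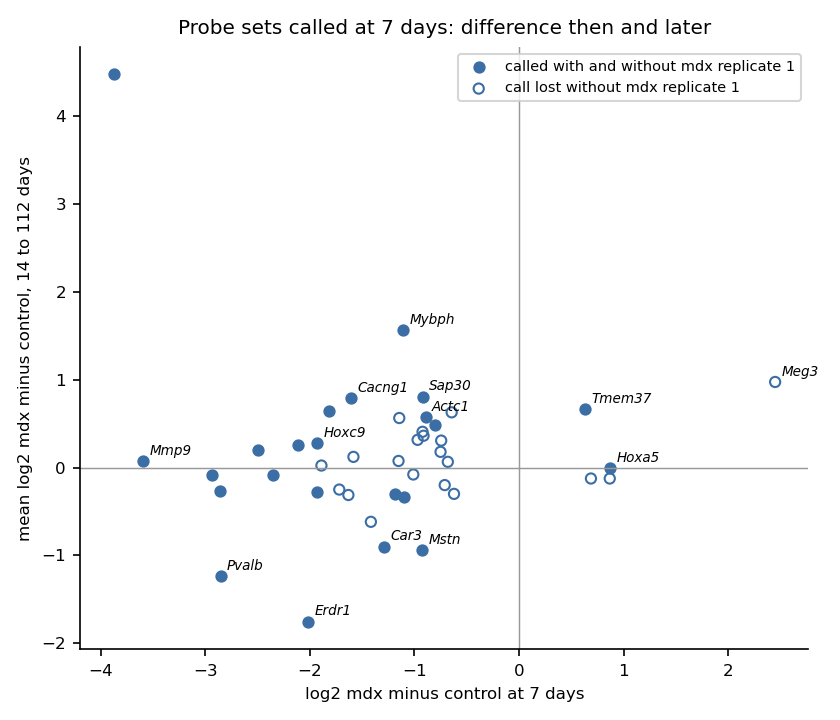
Each point is 1 of the 43 probe sets called at 7 days, with its log2 difference (mdx minus control) at 7 days on the x axis and the mean of its differences at 14 to 112 days on the y axis. Filled points were called with and without mdx replicate 1. Mybph, Cacng1, Sap30 and Actc1 lie left of 0 and above 0, while Pvalb, Erdr1, Car3 and Mstn lie below 0 on both axes.

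The genes that mark later disease had a median near control level at 7 days. At 23 days 249 probe sets (2.68%) were called higher in mdx. Their median log2 difference was 1.13 at 23 days and 0.01 at 7 days, where 50.6% lay above 0, against 54.6% of all tested probe sets. Without mdx replicate 1 the 7-day median was -0.01. At 7 days 1 of the 249 was called higher and 4 were called lower, against 0.0538% and 0.409% of all tested probe sets. Every mdx array lay above every control array in 6.83% of the 249 and below in 10%. Over all tested probe sets these shares were 8.22% and 7.16%. For 94 of them the difference at 23 days was larger than that at 7 days by the test of that contrast, which called 1.25% of all probe sets larger and 0.269% smaller. The 75 probe sets called lower at 23 days (0.807%) had a 7-day median of -0.04, and 44% lay above 0. At 7 days 2 of the 75 were called lower (0.409% of all) and 0 higher (0.0538% of all). Every mdx array lay below every control array in 17.3% of the 75 and above in 8%, against 7.16% and 8.22% of all. For 11 of the 75 the difference was called smaller at 23 days than at 7 days. Choosing genes by their 23-day difference favours a larger value there.

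Embryonic and regenerating muscle genes were not raised by their median, -0.14 at 7 days (-0.11 without mdx replicate 1). Of 24 tested, 0 were called higher and Mybph was called lower, against 0.0538% and 0.409% of all probe sets. At 23 days 13 of the 24 were called higher (2.68% of all), with a median of 0.82. For 8 the difference was called larger at 23 days than at 7 days (1.25% of all). Myl4, the embryonic light chain, read 6654, 5631.8 and 6172.9 in the controls against 4083.3, 5687.2 and 7215 in mdx at 7 days, which overlapped. Its difference was -0.15 at 7 days and 4.32 at 23 days, a gap of 4.47 (SE 0.36, adjusted p = 2.26e-09). For Myh3 the gap was 4.54 (adjusted p = 4.16e-05) and for Myh8 3.94 (adjusted p = 6.16e-07). In controls these fetal genes were high at 7 days and low later, at 3313 and then 133 to 399.9 for the mean of Myh3. Chrng, the fetal gamma subunit of the acetylcholine receptor, read 1087.7, 1166.2 and 1145 in the controls against 762.9, 1414.8 and 1606.4 in mdx at 7 days, at a log2 difference of 0.08. It was called higher at 23 days, at 2.06.

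Macrophage genes likewise had a median near control level. It was 0.20 at 7 days and 0.04 without mdx replicate 1. Of 21 tested 0 were called (0.463% of all probe sets) and 15 lay above 0 (54.6% of all). At 23 days 16 were called higher (2.68% of all), with a median of 1.73. Lgals3, the galectin of activated macrophages, read 406.6, 433.8 and 655.1 in controls against 323.8, 388.4 and 244.5 in mdx, where all mdx arrays were lower without a call. Its difference of -0.59 rose to 3.53 at 23 days, a gap of 4.12 (SE 0.46, adjusted p = 1.54e-06). The summed macrophage signal was 16829.6 to 18347.5 in control arrays and 25524.4, 17815.9 and 17046.7 in mdx, so the excess was on mdx replicate 1.

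Chemokines that recruit monocytes belonged to the largest gaps. Ccl2 read 418.1, 298.4 and 314.9 in control arrays and 442.3, 343.9 and 544.8 in mdx, and Ccl7 114.7, 118.2 and 177.8 against 213.8, 189 and 131.4. Both sets of arrays overlapped at 7 days. The gaps to 23 days were 3.87 (SE 0.65, adjusted p = 0.000537) and 3.24 (SE 0.67, adjusted p = 0.00604). Igkv6-23, an antibody segment, and Napsa, an aspartic protease, completed the 8 named genes of largest gap, at 3.7995 and 3.15. Of 11 tested chemokine and cytokine genes 0 were called at 7 days (0.463% of all) and 4 were called higher at 23 days (2.68% of all).

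**Figure D4:**
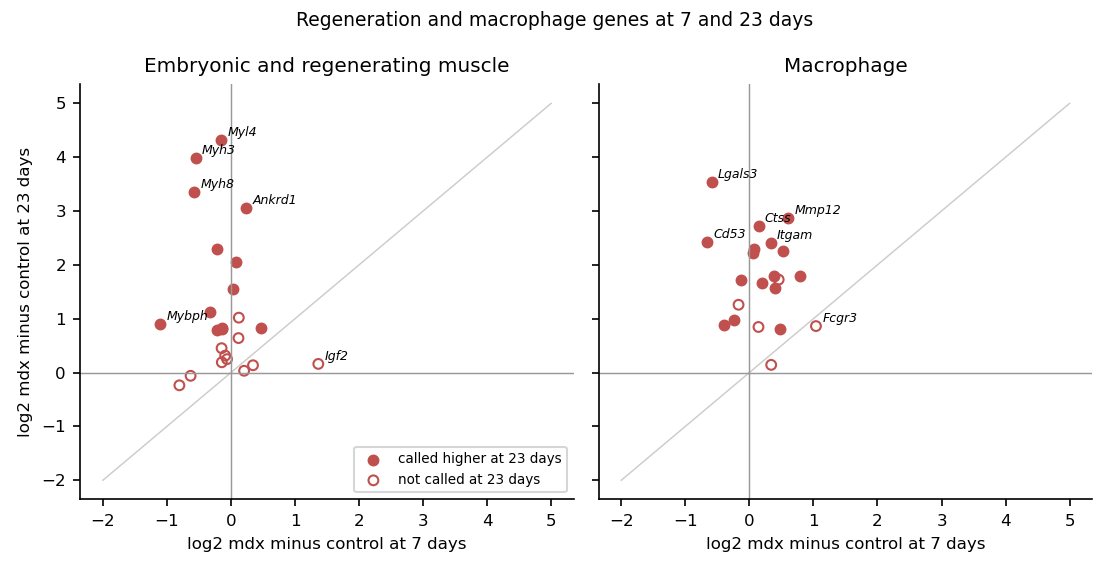
Log2 difference (mdx minus control) of each tested gene at 7 days (x axis) and 23 days (y axis), for embryonic and regenerating muscle genes (left) and macrophage genes (right). The diagonal marks equal differences and filled points were called higher at 23 days. Myl4 sits at -0.15 and 4.32 and Lgals3 at -0.59 and 3.53, and the filled points lie above the diagonal in both panels.

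Contractile and metabolic genes held no call outside those already named, where 0.463% of all probe sets were called. Of 16 fast fibre genes 0 were called, and members lay on both sides, with a median of 0.33, and 0.18 without mdx replicate 1. Myh4, the heavy chain of the fastest fibres, read 28335.8, 20714.1 and 18950.3 in control arrays and 10805.9, 11205.4 and 12227.8 in mdx. All mdx arrays were lower, and the difference of -0.97 just missed the threshold (SE 0.23, adjusted p = 0.0518). Actn3, the fast fibre actinin, stood at -0.88 (adjusted p = 0.127). Casq1, the calcium store of fast fibres, lay the other way at 1.05 with all mdx arrays above all controls (adjusted p = 0.420), but at -0.21 with the Gapdh ratio as a covariate. Of 10 slow fibre genes, 29 of oxidative phosphorylation, 17 of fatty acid oxidation and 17 of glycolysis and glycogen 0 were called, with medians of 0.21, 0.18, 0.22 and 0.21 against 0.04 for all probe sets. Without mdx replicate 1 the medians were 0.22, 0.15, 0.19 and 0.24. Hk2, the muscle hexokinase, read 5577.9, 5278.4 and 6258.4 in control arrays and 7288.4, 8877.5 and 8030.1 in mdx, with no overlap, at 0.50 (adjusted p = 0.117).

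Matrix, cell cycle and stress genes gave few calls, as did all probe sets (0.463%). Of 24 collagens and matrix genes 0 were called and the median was 0.05. Of 25 cell cycle genes, 20 immediate early and heat shock genes and 17 interferon response genes 0 were called, with medians of -0.02, 0.24 and 0.08, and 0.03, 0.17 and 0.02 without mdx replicate 1. Among 19 genes of oxidative stress and iron Car3 was the 1 called. Of 12 imprinted growth genes Meg3 was called, and Cdkn1c, a cell cycle inhibitor, and Ndn, necdin, had differences of 0.50 and -0.69 with no overlap of the groups (adjusted p = 0.200 and 0.0759). A p above the threshold does not show that these genes were equal.

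**Figure D5:**
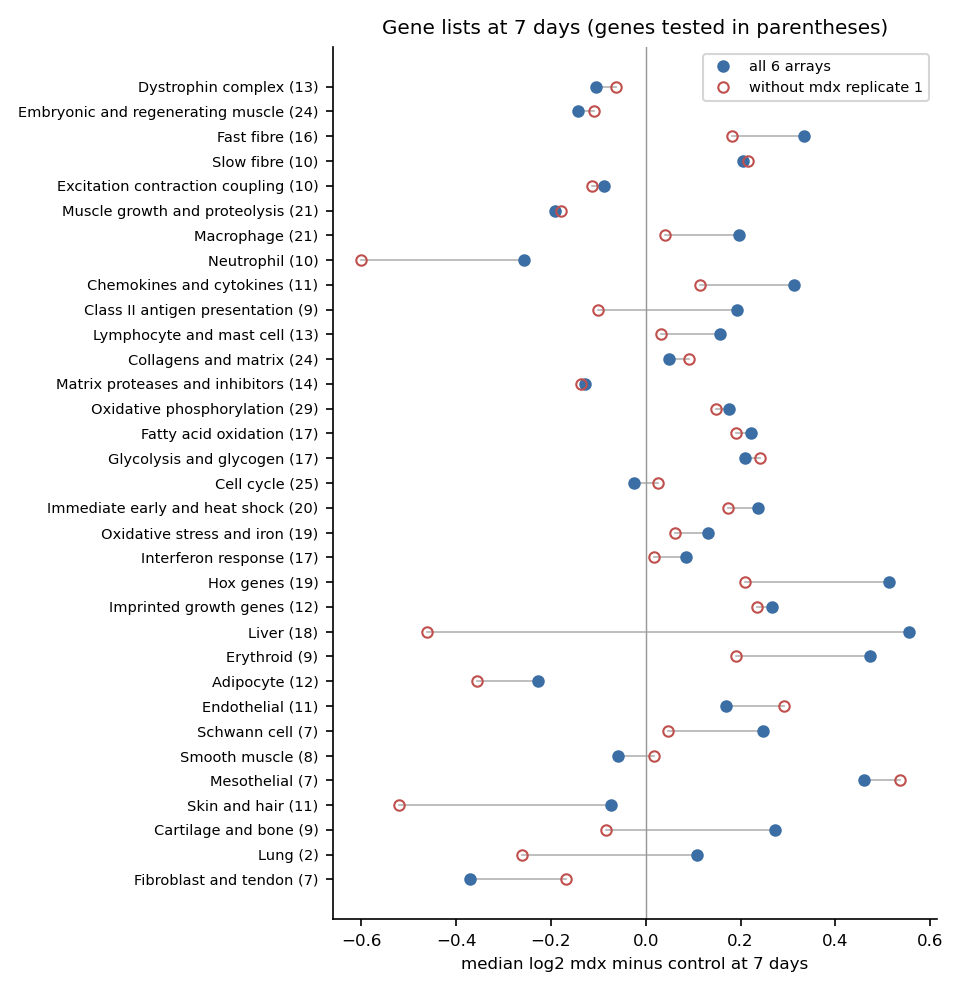
Median log2 difference at 7 days (x axis) of the tested genes of each list, with all 6 arrays (filled) and without mdx replicate 1 (open). The liver median moves from 0.56 to -0.46 and the Hox median from 0.51 to 0.21, while the regenerating muscle median stays between -0.14 and -0.11.

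Markers of other tissues in the sample gave few calls, as did all probe sets (0.463%), and several of their levels followed mdx replicate 1. Of 12 adipocyte markers 0 were called, and Adipoq, the hormone of fat cells, read 5040.4, 991.3 and 1640.4 in controls against 1050.8, 679.3 and 434.4 in mdx (-1.53, adjusted p = 0.119). Their summed signal ran from 14059.4 to 20595.1 in controls and from 12035.6 to 15058.1 in mdx, and their part in the fall of Car3 was not tested. Mesothelial markers lay above 0 in 6 of 7 genes with a median of 0.46, and 0.54 without mdx replicate 1, and 0 were called. Upk3b, a marker of the serous surface, read 2743.7, 2643.8 and 2503.1 in control arrays and 3522.5, 4188.8 and 3827.7 in mdx, with no overlap (0.54, adjusted p = 0.112). Endothelial, smooth muscle, erythroid, lung and fibroblast lists held 0 calls among 11, 8, 9, 2 and 7 tested markers.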

How the data were processed

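Diaphragm RNA of 36 samples (12 groups of 3) was measured on 1-colour Affymetrix arrays. The deposited values are linear signal intensities per probe set, from 0.3 to 92203.8. The sources used here do not name the software that made them. The mean between percentiles 2 and 98 was 1499.66 to 1500.41 on every array, so the deposited intensities were taken as already scaled. Gene symbols came from GEO's platform annotation. Of the probe sets that are not controls, 10833 had 1 symbol, 396 several and 1193 none, and 10817 matched the reference table, with 0 symbols updated.

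Of 12488 probe sets, 66 maker's controls were left out, and 9291 with at least 3 arrays above percentile 40 of all values (374.5) were tested. Group means of log2(signal + 32) were fitted over all 36 arrays with limma 3.58.1 in R 4.3.3 (moderated by a mean-dependent prior, 24 residual degrees of freedom). p-values are 2-sided and Benjamini-Hochberg adjusted, with a threshold of 0.05. The fit was tested on simulated data. Errors are standard errors of log2 differences, and the number of arrays limits their precision. Tables and figures were made with Python 3.11.15, pandas 2.3.3 and matplotlib 3.10.9.

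Of 592 genes in 33 lists, 514 were on the array and 468 tested, each by its probe set of highest mean signal over all arrays. Members, lists and tests were chosen with earlier results of these data known. Named genes are Dmd and Utrn, all called rises, the 24 genes of largest called fall, the called members of each list or else up to 3 with the lowest p, the 15 probe sets on which mdx replicate 1 lay farthest from the rest, and the 8 largest gaps between 23 and 7 days. Other genes (among them Mmp13, Igf2, Dlk1, Chrng, S100a8, Camp, Adipoq, Cacna1s, Ryr1, Sox10 and the muscle markers) and the bone resorption group were chosen after their values were seen. Alternatives were another pseudocount (16 or 64), filter, normalization or array weighting, a replicate block, the 7-day arrays alone, leaving out arrays, and albumin or the Gapdh ratio as a covariate.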

Additional observations from a re-analysis of the deposited data

Results flagged for a closer look

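For 11 of the genes called at 7 days with and without mdx replicate 1, the difference between mdx and control at 7 days departed from the mean of the differences at the 5 later ages by limma's test of that contrast, in both fits. In 10 of them the 7-day difference was the lower. Mmp9, the gelatinase, was lower by the most, at -3.67 log2 units (SE 0.55, adjusted p = 5.92e-05, and -3.67 without mdx replicate 1). Krtap8-1, the hair protein, stood at -2.70 (SE 0.64, adjusted p = 0.00923) and Entpd2, the ectonucleotidase, at -2.45 (SE 0.45, adjusted p = 0.000673). The brighter Entpd2 probe set was not called by this contrast, at -0.595 (adjusted p = 0.126).

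Muscle genes made up most of the others. Mybph of the thick filament stood at -2.67 (SE 0.25, adjusted p = 1.06e-08), Cacng1 of the voltage sensor at -2.40 (SE 0.21, adjusted p = 4.53e-09), Pvalb at -1.62 (SE 0.28), Actc1 at -1.47 (SE 0.18) and Pdlim3 of the Z-disc at -1.29 (SE 0.20). Without mdx replicate 1 these were -2.71, -2.20, -1.91, -1.43 and -1.45. The brighter probe sets of Pvalb and Actc1 did not share this, at 0.55 (adjusted p = 0.677) and -0.32 (adjusted p = 0.513). Sap30, of the histone deacetylase complex, stood at -1.73 (SE 0.19) and Hoxc9 at -2.21 (SE 0.39).

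Hoxa5 was the gene whose 7-day difference was the higher, by 0.88 (SE 0.16, adjusted p = 0.000858), and by 0.74 without mdx replicate 1 (adjusted p = 0.0114). These genes were chosen for their 7-day difference, which favours a departure from the other ages.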

How the results depend on the processing

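With all arrays 5 probe sets were higher and 38 lower at 7 days, 468 differed between 7 days and the later ages, and 141 between 23 and 7 days. The rises numbered 8 with the filter at percentile 60 and 18 with array weights, which also gave 496 probe sets between 23 and 7 days. With the replicate block there were 3 rises and 21 falls, of which 20 in all were among the 43. Deviations of same-numbered arrays of 7 days correlated at -0.225, -0.193 and -0.0888, so the numbers were not taken as pairs. The 6 arrays alone gave 0 rises and 0 falls by limma, with 723 at an unadjusted p under 0.05. Leaving out every array of albumin above 10000 gave 2, 11, 169 and 92 in the order of the first sentence, and the Gapdh ratio as a covariate 2, 8, 159 and 66. Leaving out only the 7-day arrays of high albumin, chosen after seeing the data, gave 3 rises, 15 falls and 199 between 7 days and later. Leaving out each 7-day array in turn gave 1 to 17 rises, 16 to 45 falls, 268 to 550 and 95 to 164. The cause was not tested.

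Some differences that were not called changed sign. Leaving out 1 array in turn moved Ms4a1, a B cell gene, between -0.0011 (without mdx replicate 1) and 0.994 (without mdx replicate 3). Without the high-albumin arrays, at all ages or at 7 days, Ccr2 was at -0.0501, Ms4a1 at -0.18 and Plau at -0.24. With the Gapdh covariate Casq1 was at -0.21, Myl2 at -0.28, Gzmb at -0.30, Ndufb7 at -0.29, Uqcrc2 at -0.0142 and Tpi1 at -0.0878.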

Other observations

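Gene groups with no call still differed in how their members lay. Of 17 tested fatty acid oxidation genes 15 lay above 0, and of 29 genes of oxidative phosphorylation 23 did, against 54.6% of all probe sets. Both counts were the same without mdx replicate 1. Both lists are bright, with array medians of log2(signal + 32) of 13.3 to 13.8 and 14.0 to 14.4, while all probe sets span every brightness. The part of signal level in these counts was not tested. Of 7 fibroblast and tendon markers 6 lay below 0, with a median of -0.37, and -0.17 without that array. Without mdx replicate 1, 1 of the 7 lay above 0. Their summed signal was 24871.2, 30297.6 and 26835.9 on mdx replicates 1, 2 and 3 and 30118.6 to 33558 on the control arrays.

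Gadd45a, a stress-induced gene, read 2682.8, 3325.3 and 2730.8 on the control arrays of 7 days against 1220.5, 1723.7 and 1648.3 on the mdx arrays. It was called higher in mdx at 56 and 112 days, at 0.57 and 0.68. Ndn read 11747.8, 10256.6 and 12713.9 against 5651.7, 8311.8 and 7655.8, while Cdkn1c read 20131.9, 15213.3 and 17359.7 against 28927.9, 21724.6 and 24101.9. In both genes the groups did not overlap and neither was called.

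The largest fall of all lay on a probe set with no single gene symbol here, chosen after its values were seen. It read 1257.6, 9426.3 and 11301.2 in controls and 728.3, 196.1 and 219.5 in mdx, a log2 difference of -3.88, and the mean of its later differences was 4.47.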
